A study of Mus musculus with 4 samples.

Results

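The genes described here are 10 markers of tissue-resident macrophages, chosen by name: Mrc1, Cd163, Stab1, Lyve1, Folr2, Clec10a, Mgl2, Cbr2, F13a1 and Gas6. All 10 of these were among the 12393 genes measured, and they were covered by 11 probe sets (Lyve1 by 2, the others by 1 each). Expression was measured on 4 Affymetrix mouse arrays, 1 for each of 4 groups of macrophages sorted from mouse mammary glands by a yellow fluorescent protein (YFP) that the mice expressed in macrophages. The groups were macrophages of early-stage PyMT tumors with both copies of the transcription factor gene Ets2 deleted, macrophages of such tumors labelled Ets2-expressing, macrophages of remodeling glands without tumor with both copies deleted, and macrophages of remodeling glands labelled wild type. PyMT, the polyoma virus middle T oncogene, drives mammary tumors in mice. The title of the Ets2-expressing tumor group says wild type, but its source label says 1 copy of Ets2, so the controls of the 2 settings may not match. The layout compares Ets2-deficient with Ets2-expressing macrophages in tumors, and again in remodeling glands. The labels give neither the driver of the deletion, the deleted exons, the age of the mice nor the number of animals behind each RNA sample.

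Tissue-resident macrophages sit near vessels and in the connective tissue of many organs, where they take up hyaluronan, hemoglobin, glycoproteins and dying cells. They are known by endocytic receptors on their surface, such as the mannose receptor encoded by Mrc1 and the hyaluronan receptor encoded by Lyve1. In the mammary gland, macrophages with these markers lie in the fat pad and around ducts, and macrophages that arise from recruited monocytes in tumors often carry less of them.

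Each group had 1 array, without replicates, so every difference below is one between single arrays and none was tested. Values are log2 expression values per probe set, and array medians over all 22690 probe sets were 6.30 on the Ets2-deficient tumor array, 6.22 on the Ets2-expressing tumor array, 5.98 on the Ets2-deficient remodeling array and 6.17 on the Ets2-expressing remodeling array. A gene was counted where its brighter array lay at or above that array's median and called where the arrays differed at least 2-fold, which is 1 on the log2 scale. As the nearest thing to an error, differences were compared between probe sets that name a common gene. Their pooled standard deviation (SD) was 0.338 in the tumor Ets2 comparison, 0.278 in the remodeling Ets2 comparison, and 0.320 and 0.410 for tumor minus remodeling on the Ets2-deficient and the Ets2-expressing arrays. It leaves out any variation between animals, sorts or amplifications. The Ets2 probe set itself read 12.67 and 12.77 on the Ets2-deficient and Ets2-expressing tumor arrays, and 12.97 and 13.24 on the Ets2-deficient and Ets2-expressing remodeling arrays. Without the deleted exons this neither bears out nor contradicts the labels. Macrophage genes were bright on all 4 arrays, with 17 of 17 measured members of a macrophage identity list at or above the median of each array, among them the growth factor receptor gene Csf1r.

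All 11 probe sets of the resident genes were bright on every array. The lowest of their values was 9.82 and the highest 12.85, and the lowest percentile that any of them had on its own array was 84.2. Brightness depends on the probes as well as on the transcript, so it was not used to rank the genes against each other. The range of a gene over the 4 arrays, highest minus lowest, had a median of 0.50 log2 for the 10 genes. It was 0.63 for the 7473 genes at or above the median of at least 1 array and 0.53 for the 4216 genes at or above the 75th percentile of at least 1 array. The ranges ran from 0.17 log2 for F13a1 to 1.32 log2 for Lyve1.

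Among the scavenger receptors, Mrc1 had the smallest range over the arrays (0.25 log2), Cd163 and Stab1 had ranges of 0.60 and 0.64, and Lyve1 had the widest. Mrc1, whose product binds mannose-bearing glycoproteins and carries them into the cell, read 12.59 and 12.71 on the Ets2-deficient and Ets2-expressing tumor arrays, and 12.85 and 12.77 on the Ets2-deficient and Ets2-expressing remodeling arrays. Cd163, the receptor for hemoglobin bound to haptoglobin, read 12.22 and 12.51 on the tumor arrays in that order, and 12.82 and 12.71 on the remodeling arrays. Both genes were lowest on the Ets2-deficient tumor array and highest on the Ets2-deficient remodeling array. Stab1 encodes stabilin-1, which takes up modified lipoproteins and the matrix protein SPARC. It read 10.75 and 10.70 on the Ets2-deficient and Ets2-expressing tumor arrays, and 11.08 and 10.44 on the Ets2-deficient and Ets2-expressing remodeling arrays. The 2 remodeling arrays thus held its highest and its lowest value, with both tumor arrays between them.

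Folr2 encodes folate receptor beta, a folate-binding protein found mainly on macrophages. It read 12.22 on the Ets2-deficient and 12.19 on the Ets2-expressing tumor array, and 12.47 and 12.51 on the remodeling arrays in the same order. Both tumor arrays lay below both remodeling arrays, by 0.25 to 0.32 log2 between arrays of the same Ets2 label.

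The C-type lectins Clec10a and Mgl2 bind galactose and N-acetylgalactosamine at the ends of sugar chains, and their genes are next to each other, with 0 other protein-coding genes between them in the RefSeq annotation. Clec10a read 11.58 and 12.27 on the Ets2-deficient and Ets2-expressing tumor arrays, and 12.18 and 12.16 on the Ets2-deficient and Ets2-expressing remodeling arrays. Mgl2 read 9.82 and 10.23 on the tumor arrays, and 10.03 and 10.13 on the remodeling arrays, in the same order. Each was lowest on the Ets2-deficient tumor array and highest on the Ets2-expressing tumor array. The lectins are close relatives in sequence, and whether either probe set also reads the other transcript was not examined.

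Of the remaining genes, Cbr2 encodes a carbonyl reductase, F13a1 the A subunit of coagulation factor XIII, a transglutaminase that crosslinks fibrin, and Gas6 a secreted protein that bridges dying cells to the receptors of phagocytes. Cbr2 read 12.21 and 12.14 on the Ets2-deficient and Ets2-expressing tumor arrays, and 12.31 and 12.38 on the Ets2-deficient and Ets2-expressing remodeling arrays. F13a1 read 12.60 and 12.75 on the tumor arrays, and 12.77 and 12.76 on the remodeling arrays. Gas6 read 9.87 and 10.55 on the tumor arrays, and 10.26 and 10.39 on the remodeling arrays. Gas6 and F13a1 were lowest on the Ets2-deficient tumor array, whereas the 4 values of Cbr2 lay within 0.24 log2 of each other.

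**Figure D1:**
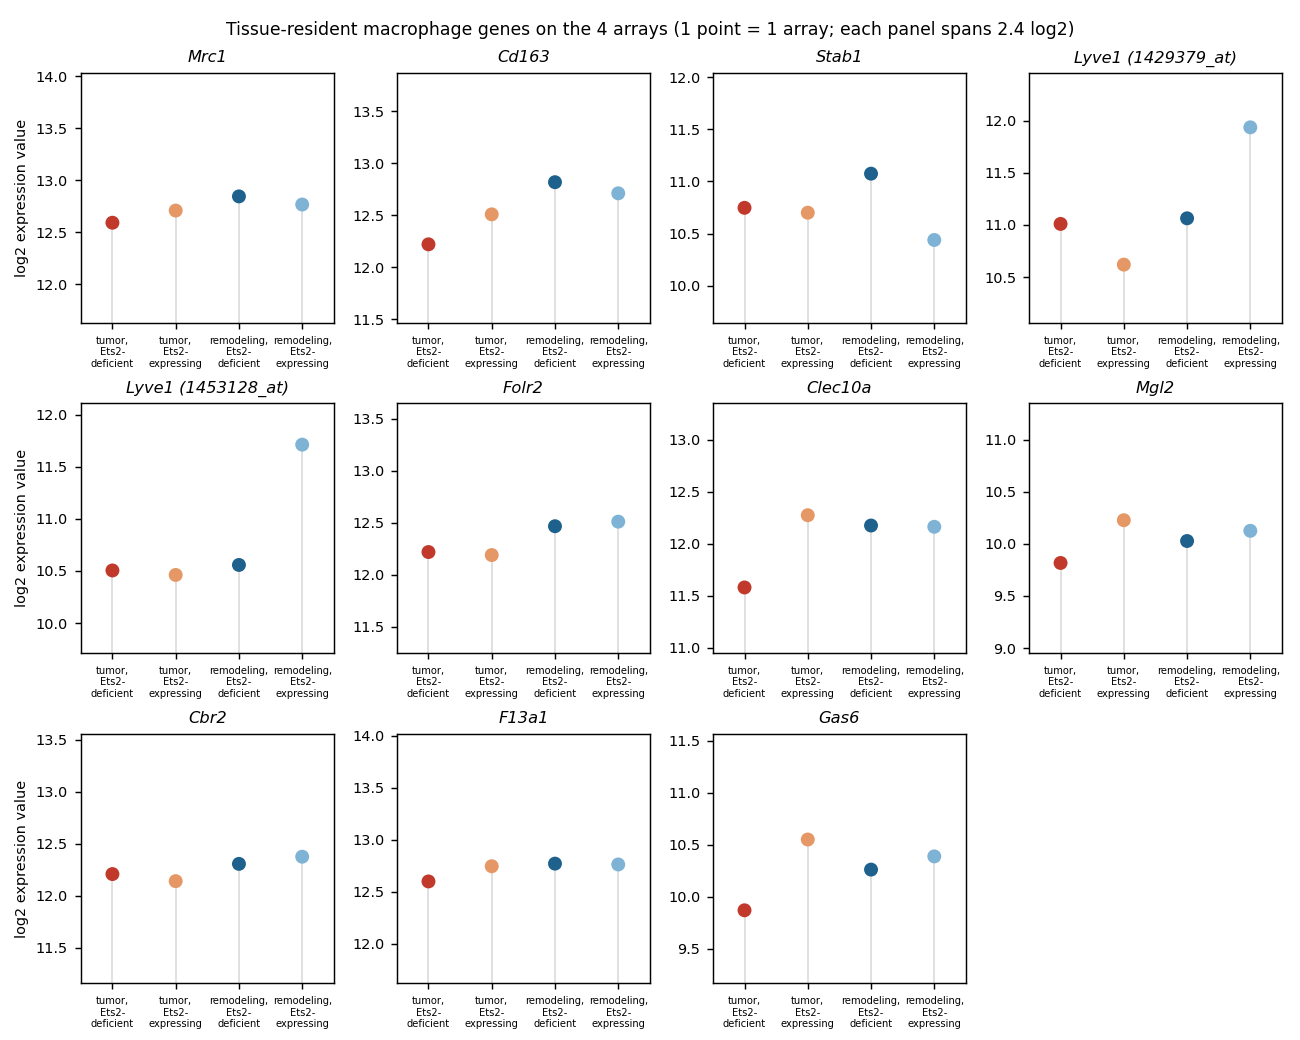
Log2 expression value of each probe set of the 10 resident genes (vertical axes, each spanning 2.4 log2 with its own origin) on the 4 arrays (horizontal axes), 1 point per array. Lyve1 stands out on the Ets2-expressing remodeling array in both of its probe sets (11.94 and 11.71), while Mrc1, Cbr2 and F13a1 have ranges of 0.25, 0.24 and 0.17 log2.

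In tumor macrophages, no resident gene differed 2-fold between the Ets2-deficient and the Ets2-expressing array. Clec10a, Gas6 and Mgl2 were lower on the Ets2-deficient array, by -0.69, -0.68 and -0.41 log2, and Lyve1 was higher by 0.39 (0.04 in its other probe set). These 4 differences, by the probe set used for each gene, were larger than the pooled SD between probe sets of 0.338. The other 6 genes lay between -0.29 (Cd163) and 0.07 (Cbr2). Called genes were 0 of 10, where 2.99% of the 7225 genes counted passed 2-fold in either direction, and 1.57% of the 3946 genes whose brighter array reached its 75th percentile. The median difference was -0.13 for the 10 genes and 0.03 over all genes counted. Of the 10 genes 6 lay below 0, beside 45.7% of all genes counted. With each array centred on its median these were 9 and 54.4%, and after quantile normalization 7 and 50.8%. After centring on hybridization controls they were 6 and 41.0%. The difference of Clec10a was larger in size than that of 89.9% of the genes counted, and that of Gas6 larger than that of 89.5%.

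Markers of other cells also differed between the tumor arrays. Of 14 mammary epithelial genes 13 were higher on the Ets2-deficient array (median difference 0.85), and the log2 of their summed signal was 14.32 there against 13.44 on the Ets2-expressing array. All 7 neutrophil genes counted were higher, with summed signals of 14.28 and 13.12 on the Ets2-deficient and Ets2-expressing arrays. Of 6 adipocyte genes measured 2 were counted, and both were lower past 2-fold on the Ets2-deficient array: the fatty acid carrier gene Fabp4, which macrophages also express (-1.475), and the carbonic anhydrase gene Car3 (-1.422). The summed signals of the 6 were 10.13 on the Ets2-deficient and 11.53 on the Ets2-expressing tumor array. Dendritic cells can also carry Clec10a and Mgl2. The 10 measured genes of a dendritic cell list had summed signals of 12.98 on the Ets2-deficient and 12.86 on the Ets2-expressing tumor array, with a median difference of 0.11 over the 8 counted. The part of these cells in the lectin and Gas6 differences was not tested. In sorted populations such as these, fewer cells of a type and less RNA per cell cannot be told apart.

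Promoter sequence was at hand for 8 of the 10 genes, but not for Lyve1 and Clec10a, the genes with the widest ranges. It came in 10 windows of 300 bases that run from 250 bases before to 50 after a RefSeq start. ETS factors, the family of Ets2, bind DNA around a GGAA core. All 10 windows held GGAA on either strand (TTCC on the other), as did 96.0% of the 32851 mouse promoter windows of this length. The longer form GGAAGT, which contains the core, was searched on both strands. It was in 4 of the 10 windows, in 4 genes (Mrc1, Folr2, F13a1 and Mgl2), and in 23.8% of all windows. The promoters of 3 genes are shown because the arrays differ in the ETS factor Ets2: Mgl2 and Gas6, among the genes lower on the Ets2-deficient tumor array, and F13a1, the gene most level over the arrays. They lie at chr11:70130107-70130406 (Mgl2, plus strand), chr8:13494486-13494785 (Gas6, minus strand) and chr13:37049164-37049463 (F13a1, minus strand, the window of its 2 that holds GGAAGT) in RefSeq on GRCm38.p6, each written 5′ to 3′ with GGAAGT or its reverse complement in capitals.
Mgl2: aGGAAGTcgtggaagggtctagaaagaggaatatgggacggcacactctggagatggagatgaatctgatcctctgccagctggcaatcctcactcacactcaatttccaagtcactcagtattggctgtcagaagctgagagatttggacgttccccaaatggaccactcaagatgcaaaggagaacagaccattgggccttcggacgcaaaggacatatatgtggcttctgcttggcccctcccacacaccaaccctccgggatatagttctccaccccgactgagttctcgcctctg
Gas6: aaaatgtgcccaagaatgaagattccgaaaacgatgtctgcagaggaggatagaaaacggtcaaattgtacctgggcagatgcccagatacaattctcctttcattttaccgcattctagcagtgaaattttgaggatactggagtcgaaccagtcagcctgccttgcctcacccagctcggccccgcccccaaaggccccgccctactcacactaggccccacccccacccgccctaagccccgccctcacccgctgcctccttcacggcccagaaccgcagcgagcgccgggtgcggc
F13a1: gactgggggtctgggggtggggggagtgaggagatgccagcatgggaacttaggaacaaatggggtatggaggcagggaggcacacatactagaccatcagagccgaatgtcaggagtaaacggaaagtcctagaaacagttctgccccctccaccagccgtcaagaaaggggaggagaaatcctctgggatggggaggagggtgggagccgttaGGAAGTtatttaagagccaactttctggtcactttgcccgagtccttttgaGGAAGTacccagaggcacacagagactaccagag
The Mgl2 window holds 1 match, the Gas6 window 0 and the F13a1 window 2. A match describes these letters and shows no binding.

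In remodeling macrophages, with the values as deposited, the resident genes were level with respect to the Ets2 label except for Lyve1 and Stab1. Lyve1 was lower on the Ets2-deficient array by -0.87 log2 in the probe set used for the gene and by -1.16 in its other probe set, which passed 2-fold. Stab1 was higher there by 0.64 log2, or 1.56-fold. Both differences exceeded the pooled SD between probe sets of 0.278. The other 8 genes lay between -0.13 (Gas6) and 0.11 (Cd163).

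By the probe set used for each gene, 0 of 10 genes passed 2-fold in the remodeling Ets2 comparison, where 6.48% of the 7095 genes counted did so in either direction, and 3.90% of the 3872 genes reaching the 75th percentile. With the other Lyve1 probe set, chosen after its value was seen, the count was 1 of 10. The median difference was -0.02 for the 10 genes and 0.05 over all genes counted. Centring each array on its median raised all differences in this comparison alike, so that the median of the 10 genes became 0.18 and that of all genes counted 0.24. Relative to all genes, the 10 genes lay at -0.07 both with and without that centring. As deposited, 5 of the 10 genes lay below 0, beside 42.9% of all genes counted. With each array centred on its median these were 1 and 24.7%, and after centring on hybridization controls 1 and 24.4%. After quantile normalization they were 6 and 41.2%.

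**Figure D2:**
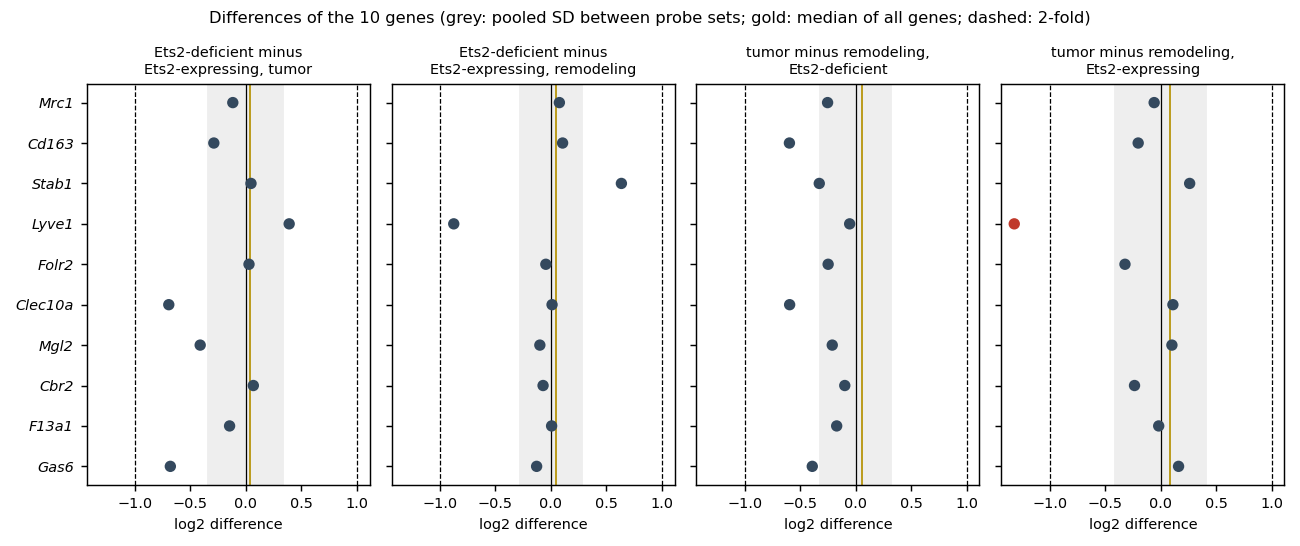
Log2 differences of the 10 genes (rows) in the 4 comparisons (panels), Ets2-deficient minus Ets2-expressing or tumor minus remodeling, with the pooled SD between probe sets in grey, the median of all genes counted in gold and 2-fold as dashed lines. Lyve1 on the Ets2-expressing arrays, tumor minus remodeling (-1.32), is the only point past 2-fold.

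Lyve1 was the gene that varied most, and 1 array set its pattern. Its product binds hyaluronan and is found on lymphatic endothelium and on resident macrophages next to vessels. The probe set used for the gene read 11.01 and 10.62 on the Ets2-deficient and Ets2-expressing tumor arrays, and 11.06 and 11.94 on the Ets2-deficient and Ets2-expressing remodeling arrays. The other read 10.51 and 10.46 on the tumor arrays, and 10.56 and 11.71 on the remodeling arrays, in the same order. Both probe sets were highest on the Ets2-expressing remodeling array, and the next highest array read 11.06 and 10.56. The annotation gives both the same source sequence, so they are not independent readings of the gene.

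In the remodeling Ets2 comparison, markers of several other cell types were lower on the Ets2-deficient array, as Lyve1 was. Over all genes counted there, 5.17% were lower past 2-fold. Of 11 fibroblast genes, 10 were lower past 2-fold on the Ets2-deficient remodeling array, where the log2 of their summed signal was 12.86 against 14.62 on the Ets2-expressing one. Of 9 mast cell genes 5 were bright enough to count, all 5 lower past 2-fold, and the summed signal of the 9 was 9.09 on the Ets2-deficient and 11.00 on the Ets2-expressing remodeling array. Of 12 endothelial genes 4 were counted and 2 of these were lower past 2-fold (Tek, -2.76, and Ramp2, -2.28). The other 2 counted were higher on the Ets2-deficient array, Vwf by 0.96 and Eng by 0.07. The summed signals of the 12 were 8.85 on the Ets2-deficient and 9.61 on the Ets2-expressing remodeling array. Of 6 neutrophil genes counted 5 were lower and 1 higher (median -0.64), with 2 lower past 2-fold. All 5 B cell genes counted were higher on the Ets2-deficient array. For tumor minus remodeling on the Ets2-deficient arrays, the fibroblast genes had a median of 0.67, whereas Lyve1 differed by -0.05. The part of the cells of these lists in the Lyve1 difference was not tested.

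The defining markers of lymphatic endothelium lay at or near background. Prox1, the transcription factor that specifies lymphatic vessels, was below the 25th percentile of every array, at 3.68 and 4.14 on the Ets2-deficient and Ets2-expressing tumor arrays and 3.87 and 3.77 on the remodeling ones. Flt4, a lymphatic receptor for vascular growth factors, was at 4.94 and 4.87 on the tumor arrays and 4.26 and 4.70 on the remodeling arrays, below each median. Reln was below each median too. Of the 4 lymphatic genes measured only Pdpn, which fibroblasts also express, was bright, at 10.39 and 9.88 on the tumor arrays and 7.07 and 9.15 on the remodeling arrays. The summed signals of the 4 were 10.46 and 9.97 on the tumor arrays and 7.52 and 9.28 on the remodeling arrays. Stab2, the relative of Stab1 on sinusoidal endothelium, was below the 25th percentile of every array, at 4.18 and 4.14 on the tumor and 4.27 and 4.05 on the remodeling arrays.

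**Figure D3:**
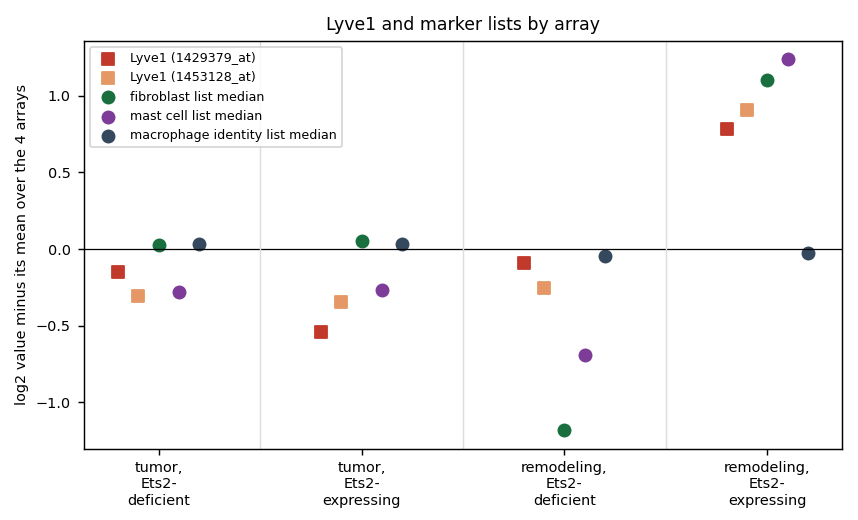
Log2 values of both Lyve1 probe sets (squares) and medians of the fibroblast, mast cell and macrophage identity lists (circles), each minus its own mean over the 4 arrays (vertical axis), by array. Lyve1 (11.94 and 11.71 before centring) and the fibroblast and mast cell medians are highest on the Ets2-expressing remodeling array, the macrophage identity median is nearly level, and the fibroblast median is far lower than Lyve1 on the Ets2-deficient remodeling array.

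Between tumor and remodeling macrophages, all 10 resident genes were lower in tumor on the arrays labelled Ets2-deficient, by little each. Cd163 and Clec10a were lower by -0.60 log2 each (1.51-fold), Gas6 by -0.39 and Stab1 by -0.33. These 4 exceeded the pooled SD between probe sets of 0.320, and the other 6 genes lay between -0.25 (Mrc1) and -0.05 (Lyve1). Called genes were 0 of 10, where 9.22% of the 7203 genes counted passed 2-fold in either direction, and 5.28% of the 3978 genes whose brighter array reached its 75th percentile. The median was -0.25 for the 10 genes and 0.06 over all genes counted, of which 44.6% lay below 0. All 10 stayed below 0 after quantile normalization, where 50.3% of all genes counted did. Centring on array medians or on hybridization controls lowered every difference in this comparison, so it could not bring any of the 10 above 0. Of all genes counted 69.5% lay below 0 after centring on array medians, and 62.9% after centring on hybridization controls. Centring on array medians moved the median of all genes counted to -0.26 and that of the 10 genes to -0.57, and the distance between them was -0.31 in both. The genes share the 2 arrays, so their common sign is a property of 1 pair of arrays. The Ets2-deficient tumor array also enters the tumor Ets2 comparison, so a low value there, such as that of Clec10a, shows in both.

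On the Ets2-expressing arrays, 6 of 10 genes lay below 0 for tumor minus remodeling, beside 42.9% of all genes counted. Lyve1 alone of the 10 passed 2-fold. Lyve1 was lower in tumor by -1.32 log2 (2.49-fold), and by -1.25 in its other probe set. Called genes were 1 of 10, where 11.4% of the 7253 genes counted passed 2-fold in either direction, and 6.96% of the 4007 genes reaching the 75th percentile. Folr2 was lower by -0.32, Cbr2 by -0.24 and Cd163 by -0.20, and Stab1 was higher by 0.26. All 9 genes other than Lyve1 lay within the pooled SD of 0.410. The median was -0.04 for the 10 genes and 0.09 over all genes counted. Whether the genes differ between tumor and remodeling more in one Ets2 label than in the other could not be tested with 1 array per group.

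Epithelial markers and RNA ends moved with the tumor label, and the adipocyte genes Fabp4 and Car3 did so past 2-fold on the Ets2-deficient arrays only. On the Ets2-deficient arrays 14 of 14 epithelial genes were higher in tumor past 2-fold, with summed signals of 14.32 in tumor and 8.97 in remodeling macrophages. On the Ets2-expressing arrays 12 of the 13 counted were higher past 2-fold, with summed signals of 13.44 and 9.85 in tumor and remodeling macrophages. The fibroblast genes ran in opposite ways: 11 of 11 were above 0 on the Ets2-deficient arrays (13.63 in tumor and 12.86 in remodeling macrophages), and 11 of 11 below 0 on the Ets2-expressing arrays (13.59 in tumor and 14.62 in remodeling macrophages). Of 6 adipocyte genes measured, only Fabp4 and Car3 were bright enough to count. They were lower in tumor by -1.89 and -2.635 log2 on the Ets2-deficient arrays, and by -0.13 and -0.47 on the Ets2-expressing arrays. For the Actb controls, the probe set at the 3' end exceeded that at the 5' end by 3.54 and 3.30 on the tumor arrays (Ets2-deficient and Ets2-expressing) and by 2.96 and 2.72 on the remodeling arrays, a gap that widens as RNA degrades. The gap for Gapdh was 2.265 and 2.45 on the tumor arrays and 1.80 and 1.61 on the remodeling arrays in that order. The gap for Tfrc went the other way, at 5.27 and 5.03 on the tumor arrays and 5.96 and 5.75 on the remodeling arrays. Their part in the small shift of the resident genes was not tested.

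Other genes linked to resident macrophages were examined as a list of 49 symbols, of which 41 were measured. Among the symbols, Sepp1 and Selenop name the same gene. C1qa, C1qb and C1qc are also in the macrophage identity list, and Retnla and Klf4 in the list of interleukin-4 response genes used below. The list was chosen with earlier results of these data known. Of its members, 38 were bright enough to count in each comparison. On the Ets2-deficient arrays 29 of 38 lay below 0 for tumor minus remodeling (median -0.22), beside 44.6% of all genes counted. Of the 38, 6 were lower and 2 higher past 2-fold in tumor, where 1.61% of all genes counted were lower and 7.61% higher. On the Ets2-expressing arrays 26 of 38 lay below 0 (median -0.21), beside 42.9% of all genes counted. Here 2 were lower and 1 higher past 2-fold, where 5.2% of all genes were lower and 6.18% higher. In the tumor Ets2 comparison 0 of 38 passed 2-fold (median -0.09), and in the remodeling Ets2 comparison 1 was higher and 1 lower (median -0.04), where 1.31% of all genes were higher and 5.17% lower.

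The 6 lower genes of the wider list on the Ets2-deficient arrays included genes of lipid, iron and pathogen handling. Hpgd, which breaks down prostaglandins, read 9.24 in tumor and 11.02 in remodeling macrophages, a difference of -1.78 log2, and -1.60 in its other probe set. Slc40a1, the iron exporter ferroportin, read 10.04 in tumor and 11.52 in remodeling macrophages (-1.48), and its other probe set gave -1.30. The lectin gene Cd209b (-1.26), the fatty acid receptor gene Cd36 (-1.26), Spic, a transcription factor of iron-recycling macrophages (-1.18), and the monocyte chemokine gene Ccl2 (-1.02) followed. The other probe sets of Cd36 gave -1.24 and -0.94, and that of Spic, whose values run from 6.36 to 7.86, gave -1.49. Higher in tumor were the complement receptor gene Vsig4, at 9.20 in tumor and 6.47 in remodeling macrophages (2.73), and Cd5l, a secreted scavenger protein (1.71).

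On the Ets2-expressing arrays the monocyte chemokine genes Ccl7 and Ccl2 were lower in tumor, by -2.13 and -1.56 log2, and Vsig4 was higher by 1.77, at 8.71 in tumor and 6.94 in remodeling macrophages. Vsig4 and Ccl2 were thus past 2-fold in the same direction in both pairs of arrays. How many of all genes were so was not counted. The pairs share no array, but the epithelial and RNA-end differences were present in both. Hpgd differed by 0.04 there and Slc40a1 by -0.24. In the remodeling Ets2 comparison Hpgd was higher on the Ets2-deficient array by 1.31 log2 (1.05 in its other probe set), and Cd5l was lower by -1.31. Slc40a1 was higher by 0.96, and by 1.16 in its other probe set.

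The lectins of the Cd209 family, relatives of the dendritic cell receptor DC-SIGN, were represented by 4 genes of the wider list. Cd209d read 11.86 and 12.00 on the Ets2-deficient and Ets2-expressing tumor arrays, and 12.24 and 12.39 on the remodeling arrays in that order. Cd209f read 11.66 and 11.85 on the tumor arrays, and 12.03 and 12.12 on the remodeling arrays. Cd209g differed by at most 0.27 log2 in any comparison. Among the 4, only Cd209b passed 2-fold in any of the 4 comparisons. Of family members outside that list, Cd209e was higher in tumor, by 0.56 and 0.21 log2 on the Ets2-deficient and Ets2-expressing arrays. Cd209a was lower, by -0.23 and -0.45, and Cd209c differed by 0.38 and -0.39, in the same order. In the tumor Ets2 comparison Cd209c differed by 0.98.

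Genes that mark lipid-associated macrophages were mostly higher in tumor than in remodeling macrophages in both pairs of arrays, with 9 of 11 above 0 on the Ets2-deficient and 11 of 11 on the Ets2-expressing arrays. Of the 11 such genes measured, all 11 counted, 4 were higher past 2-fold in tumor on the Ets2-deficient arrays (median 0.62) and 6 on the Ets2-expressing arrays (median 1.0), and 0 were lower in either, where 7.61% and 6.18% of all genes counted were higher on the Ets2-deficient and the Ets2-expressing arrays. Gpnmb, a glycoprotein of lipid-laden macrophages, read 10.98 in tumor and 8.13 in remodeling macrophages on the Ets2-deficient arrays, and 11.43 in tumor and 7.78 in remodeling macrophages on the Ets2-expressing arrays. The integrin gene Itgax was higher by 1.80 and 1.93 log2, and the apolipoprotein gene Apoc1 by 1.41 and 1.5, on the Ets2-deficient and the Ets2-expressing arrays. Apoc2 lay exactly at the 2-fold limit on the Ets2-expressing arrays. The macrophage identity list had medians of -0.08 on the Ets2-deficient and -0.04 on the Ets2-expressing arrays, with 0 of 17 genes past 2-fold in each.

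**Figure D4:**
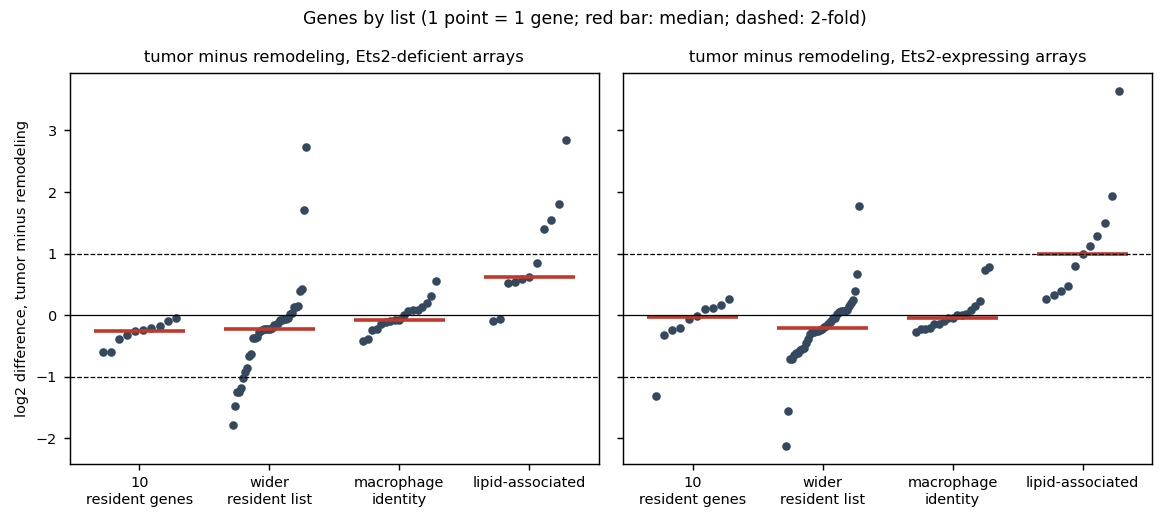
Log2 difference, tumor minus remodeling (vertical axis), of the genes bright enough to count in 4 lists (horizontal axis) on the Ets2-deficient (left) and Ets2-expressing (right) arrays, 1 point per gene, with the median as a red bar and 2-fold as dashed lines. The 10 resident genes have medians of -0.25 and -0.04, and the lipid-associated genes of 0.62 and 1.0.

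The partners of the secreted members were measured as well. Gas6 acts through the receptors Tyro3, Axl and Mertk, and Pros1 encodes their other ligand. Mertk read 10.24 and 10.07 on the Ets2-deficient and Ets2-expressing tumor arrays, and 10.66 and 10.22 on the remodeling arrays in that order. Axl read 10.11 and 10.06 on the tumor arrays, and 9.44 and 9.45 on the remodeling arrays, so both tumor arrays lay above both remodeling arrays by less than 2-fold. Pros1 differed by at most 0.315 log2 in size. Tyro3 was below the median of every array, with values from 4.39 to 4.56. F13b, the carrier subunit of coagulation factor XIII made in the liver, lay below the 25th percentile of 3 arrays and at 4.62 on the Ets2-expressing remodeling array.

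Genes of the response to interleukin-4, the cytokine of alternative activation that raises Mrc1, Clec10a and Mgl2 in culture, were also measured. Of 11 measured, 0 of the 10 counted passed 2-fold in the tumor Ets2 comparison, where 2.99% of all genes counted did. In the remodeling Ets2 comparison 2 of 9 were lower, the chemokine gene Ccl17 (-2.31) and the receptor gene Il4ra (-1.60, and -1.66 and -0.59 in its other probe sets, the last dim on all arrays), where 5.17% of all genes counted were lower. Il4ra read 8.23 on the Ets2-deficient and 9.83 on the Ets2-expressing remodeling array. For tumor minus remodeling, Ccl17 (2.92), the arginine-degrading enzyme gene Arg1 (2.78) and Il4ra (1.27) were higher, where 7.61% of all genes were, and the transcription factor gene Irf4 was lower (-1.003), where 1.61% were, on the Ets2-deficient arrays. Arg1 (2.46) and the chemokine gene Ccl22 (1.18) were higher on the Ets2-expressing arrays, where 6.18% of all genes were. Ccl17 and Il4ra went the other way there, by -0.31 and -0.47 log2. Both were lowest on the Ets2-deficient remodeling array, which enters each comparison in which they passed 2-fold. Retnla, a secreted protein induced by interleukin-4, read between 13.36 and 13.61 on all 4 arrays.

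Likeness to a gene was measured as the Euclidean distance between profiles over the 4 arrays, each centred on its own mean, for the 3 resident genes with the widest range. The genes closest to Lyve1 were Flt1 (distance 0.07 log2), Plec (0.08) and Cemip2 (0.09), all bright on the 4 arrays. Flt1, which encodes a receptor for vascular endothelial growth factor, read 7.60 and 7.27 on the Ets2-deficient and Ets2-expressing tumor arrays, and 7.75 and 8.54 on the Ets2-deficient and Ets2-expressing remodeling arrays. The genes closest to Clec10a were Slc6a13, Ddx25 and Psd (0.09 to 0.10) and those closest to Gas6 were Diras1, Gpr63 and Peli2 (0.03 to 0.04). Of these 6, all but Peli2 lay below the median of every array. With 12393 profiles over 4 arrays, small distances arise among dim genes and describe these arrays only.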

How the data were processed

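Macrophage RNA from 4 groups was measured on 4 Affymetrix arrays, 1 per group. The authors deposited log2 expression values per probe set. GCOS and RMA are the tools listed per the submitters' processing notes, and their versions and roles are not given in the sources used here. Per the labels' protocols, a NuGEN Ovation kit amplified the RNA as biotin-labelled cDNA. The values were used as deposited, all 4 columns were used and 0 were left out.

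Of 22690 probe sets, 64 were controls, 20380 named exactly 1 gene and 691 several. Names came from the platform annotation, and 10 of 10 members matched RefSeq by Entrez identifier. Each gene was represented by the brightest of its probe sets, by mean value, which gave 12393 genes. Differences were taken in Python 3.11.15 with pandas 2.3.3 and numpy 2.4.6, counted where the brighter array was at or above its median and called at 2-fold. No test was run: each difference is between 2 single arrays, which leaves no residual degrees of freedom, and precision was limited by the number of arrays. An additive fit of setting and Ets2 label over all 4 arrays would leave 1 residual degree of freedom, taking the Ets2 difference as equal in both settings, and was not run.

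Members and lists were chosen with earlier results of these data known. Every member is named, with up to 4 genes past 2-fold per list and the 3 nearest profiles of 3 members. Names outside this rule, such as the Cd209 family and Retnla, were chosen after the values were seen. Alternatives were 3 scalings, another probe set rule, 2 brightness limits and a 1.5-fold limit, and, added after the data were seen, the other Lyve1 probe set. Promoter sequences are from RefSeq on GRCm38.p6.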

Additional observations from a re-analysis of the deposited data

Results flagged for a closer look

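In the probe set used for the gene, the Ets2 difference of Lyve1 had opposite signs in the 2 settings. This was not tested, as each group had 1 array. Its Ets2-deficient value exceeded its Ets2-expressing value by 0.39 log2 in tumor macrophages, and the same subtraction gave -0.87 in remodeling macrophages in the probe set used for the gene, 1.265 apart. In the other probe set the values were 0.04 in tumor and -1.16 in remodeling macrophages, 1.199 apart. That tumor value lay within the pooled SD between probe sets of 0.338, so an opposite direction in tumor was not seen there. How many of all genes differ this much with opposite signs was not counted. For the other 9 resident genes the 2 differences were less than 1 log2 apart.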

How the results depend on the processing

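Lyve1 was the 1 resident gene called between tumor and remodeling on the Ets2-expressing arrays under each of the 8 alternatives. One of these called at 1.5-fold, where 29.8% of all genes counted passed. The 2 brightness limits could not change the count, as the lowest percentile of any resident probe set was 84.2. In the remodeling Ets2 comparison the count of 0 became 1 (Lyve1) with the mean of all probe sets per gene and with the other Lyve1 probe set, chosen after the data were seen. At a 1.5-fold limit the count was 2 in the tumor Ets2 comparison (Clec10a and Gas6), where 15.3% of all genes counted passed. It was 2 in the remodeling Ets2 comparison (Stab1 and Lyve1), where 16.3% passed. For tumor minus remodeling on the Ets2-deficient arrays it was 2 (Cd163 and Clec10a), where 23.7% passed. Medians of the 10 genes ran from -0.21 to -0.08 in the tumor Ets2 comparison, from -0.03 to 0.18 in the remodeling Ets2 comparison, from -0.57 to -0.25 for tumor minus remodeling on the Ets2-deficient arrays and from -0.11 to -0.04 on the Ets2-expressing arrays. The sign of the remodeling median thus depended on the scaling. No paired analysis was possible with 1 array per group, and the additive fit over all 4 arrays was not run.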
